A study of Mus musculus with 4 samples.

Results

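The genes described here are 51 genes of the cell cycle and of DNA replication in mouse Th2 cells, the helper T cells that make IL-4, IL-5 and IL-13. They were taken by name from a list of such genes and comprise 17 genes used for DNA replication in S phase, 5 regulators of the step from G1 into S phase, 21 genes used in mitosis, 5 D-type cyclins and their kinases, and 3 inhibitors of cyclin-dependent kinases. Of the 51, 49 had a probe that could be named through its RefSeq accession, among 18539 genes named in this way. The ribonucleotide reductase subunit Rrm2 and the cyclin Ccnd1 had no such probe, so no level is given for them. All 49 were well above background on all 4 arrays, so none passed the filter on dim signals through 1 condition alone. Each is represented by its brightest probe.

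Spleen CD4 T cells of female C57BL/6J mice were activated over 2 days by plate-bound anti-TCR-β antibody at 3 µg/ml and anti-CD28 antibody at 1 µg/ml, with IL-2 at 2.5 ng/ml and IL-4 at 10 ng/ml, and were then kept for 3 days in the same cytokines without the antibodies. SH-2251, a small molecule of the thioamide kind that was developed against IL-5, was left out of the control cultures or added at 1 µM in the first phase and, according to the labels, at 1 mM in the second, whereas the methods of the study give a lower, nanomolar dose. The study describes naive CD4 T cells with an antibody to IFN-γ added, the labels name splenic CD4 T cells without further detail, and neither an age for these mice nor a vehicle for the control cultures is in the labels. Cells of both cultures were then left resting or restimulated for 4 h with immobilized anti-TCR-β, which gave 4 conditions: control resting, SH-2251 resting, control restimulated and SH-2251 restimulated. Each condition was measured on 1 array. The T cell markers Cd3e, Cd3g, Cd4, Gata3, Il4 and Il4ra were well above background on all 4 arrays.

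Levels are given as log2 signal minus the 75th percentile of the array, on which a level of 0 is that percentile and a difference of 1 is 2-fold. With 1 array for each condition there is no replicate check and no test was made. The error given is a technical SD, taken from the scanner software's error model, which was 0.204 to 0.218 on the log2 scale for a difference of any member between 2 arrays. It covers error within the arrays only, and having so few arrays limits the precision. Levels are compared between arrays for the same gene and never between genes. The 4 arrays were similar in brightness, with a 75th percentile at 499 to 614 intensity units and 56.0% to 56.7% of probes well above background, and they shared 1 slide and 1 scan.

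Cells that divide pass through G1, S phase, G2 and mitosis. In G1, D-type cyclins with CDK4 and CDK6, and then cyclin E with CDK2, phosphorylate the retinoblastoma family, which frees E2F factors to switch on the genes for DNA replication. Genes for mitosis are switched on later, by B-Myb and FoxM1 with the MuvB complex, while p21, p27 and the INK4 proteins hold the cyclin-dependent kinases back. T cells enter this cycle after antigen receptor stimulation and keep dividing for some days in IL-2.

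Promoters of 4 members are shown because these genes mark the extremes of the results below and carry the sequence motifs by which replication and mitotic genes are often told apart. They are the 250 bases before the RefSeq start site in GRCm38.p6, written 5′ to 3′ on the strand of the gene. In Mcm6 (chr1:128359706-128359955, minus strand) and Cdc6 (chr11:98907901-98908150, plus strand) capitals mark the E2F motif TTTNNCGC, where N is any base, or its reverse complement.
Mcm6: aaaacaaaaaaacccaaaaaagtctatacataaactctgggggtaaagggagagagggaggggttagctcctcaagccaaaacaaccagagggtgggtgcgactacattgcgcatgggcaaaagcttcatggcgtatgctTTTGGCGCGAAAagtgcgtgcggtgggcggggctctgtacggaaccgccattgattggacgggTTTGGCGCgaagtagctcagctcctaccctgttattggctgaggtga
Cdc6: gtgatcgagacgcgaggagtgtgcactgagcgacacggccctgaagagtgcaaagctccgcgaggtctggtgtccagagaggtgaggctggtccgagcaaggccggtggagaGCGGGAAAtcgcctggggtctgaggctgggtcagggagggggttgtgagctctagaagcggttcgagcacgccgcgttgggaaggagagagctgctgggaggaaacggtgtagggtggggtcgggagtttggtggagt
Mcm6 held 3 matches, of which 2 overlap in the longer capital run, starting 110, 106 and 47 bases before the start site. Cdc6 held 1, at 138 bases. In Cdc20 (chr4:118437344-118437593, minus strand) and Cenpf (chr1:189688087-189688336, minus strand) capitals mark the cell cycle homology region, searched as TTTGAA or TTTAAA, and the NF-Y motif CCAAT, both on either strand.
Cdc20: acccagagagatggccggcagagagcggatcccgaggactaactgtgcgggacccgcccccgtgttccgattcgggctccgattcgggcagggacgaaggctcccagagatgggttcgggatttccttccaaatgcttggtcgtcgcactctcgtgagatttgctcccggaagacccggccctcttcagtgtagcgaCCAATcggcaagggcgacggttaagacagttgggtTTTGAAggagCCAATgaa
Cenpf: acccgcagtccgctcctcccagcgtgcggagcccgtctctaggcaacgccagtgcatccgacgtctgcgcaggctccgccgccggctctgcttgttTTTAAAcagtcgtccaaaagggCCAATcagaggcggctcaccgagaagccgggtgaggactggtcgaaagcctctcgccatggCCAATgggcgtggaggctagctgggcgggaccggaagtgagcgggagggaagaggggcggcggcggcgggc
Cdc20 held TTTGAA at 18 bases and CCAAT at 53 and 8 bases before the start, and Cenpf held TTTAAA at 154 and CCAAT at 132 and 71 bases. None of the 3 motifs overlaps another kind in these 4 stretches.

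Over windows of 300 bases, from 250 before to 50 after each start, the E2F motif lay in 8 of 17 windows of S phase members (47.1%), in 1 of 16 windows of mitotic members (6.25%) and in 5.17% of all 32851 promoter windows. The cell cycle homology region lay in 5 of 17 (29.4%), 14 of 16 (87.5%) and 27.6%, and CCAAT in 12 of 17 (70.6%), 14 of 16 (87.5%) and 37.4%. The mitotic members thus differed from the S phase members most in the cell cycle homology region and the E2F motif. For E2F the gap was small in the lists of further replication and mitotic genes used below. There it lay in 9 of 34 replication windows (26.5%) and 7 of 35 mitotic windows (20%). The cell cycle homology region lay in 8 of 34 (23.5%) and 26 of 35 (74.3%), and CCAAT in 15 (44.1%) and 24 (68.6%). The windows of the 3 inhibitors, of which there were 5, held no E2F motif, 1 with the cell cycle homology region and 2 with CCAAT. The table of promoters had entries for 16 of the 17 S phase, 16 of the 21 mitotic and all 3 inhibitor genes. The S phase entries include Rrm2, which had no named probe. A match is a description of the letters and not of binding.

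Replication genes were lower with SH-2251 in both states. In resting cells 15 of 16 S phase members were lower than in control cells, where 57.4% of all 12683 genes compared were lower, and their median difference was -0.25 on the log2 scale compared with -0.055 for all genes. It was -0.13 under quantile normalization and -0.51 under normexp on all spots. In restimulated cells all 16 were lower, where 57.9% of 12622 genes were lower, with a median of -0.49 compared with -0.063. The differences were small for single genes: 10 of 16 in resting and 15 of 16 in restimulated cells were lower by more than their technical SD, compared with 27.1% and 27.3% of all genes. None reached 1.5-fold in resting cells, where 7.44% of all genes were at least 1.5-fold lower, and Mcm3, Mcm7 and Cdc6 did so in restimulated cells, where 7.1% did. No member of any group was 2-fold lower with SH-2251, compared with 2.88% of all genes in resting and 2.76% in restimulated cells. In such bulk samples, fewer cells of a type and less RNA per cell cannot be told apart, and the share of cells in S phase is not given by the arrays.

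The 6 subunits of the MCM helicase, which unwinds DNA ahead of the fork, were lower with SH-2251 in either state. Mcm6 showed the largest difference of the S phase members in resting cells. Its level was 7.29 on the control resting array, 6.74 with SH-2251 resting, 6.60 in control restimulated and 6.01 with SH-2251 restimulated cells, and the SH-2251 differences were -0.55 and -0.58. The 2 SH-2251 arrays were thus each below the control array of the same state. Mcm7 stood at 5.63, 5.24, 4.97 and 4.36 in the same order, with differences of -0.39 and -0.61. For Mcm3 the levels were 3.34, 3.03, 3.06 and 2.38, and the difference widened from -0.31 to -0.69. Mcm2, Mcm4 and Mcm5 differed by -0.19 to -0.34 in resting and by -0.36 to -0.51 in restimulated cells.

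Cdc6 and Cdt1 load the helicase onto origins, and Cdc45 is part of the active helicase. Cdc6 read 1.47, 1.16, 1.26 and 0.53, a difference of -0.31 in resting and -0.73 in restimulated cells, the latter being the largest of any S phase member in either state and equal to 1.66-fold. A second Cdc6 probe gave -0.41 and -0.86. Cdt1 differed by -0.28 and -0.54. Cdc45 was alike on 3 arrays, at 0.42, 0.39 and 0.41, and lower only on the SH-2251 restimulated array, at -0.13. Its difference of -0.03 in resting cells was far inside the technical SD, while that of -0.54 in restimulated cells was not.

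Pcna, the sliding clamp of the replicative polymerases, was spotted 10 times on each array, which gives a direct view of spot error. Its mean level was 6.32 (SD between spots 0.0648, n = 10 spots) on the control resting array and 6.04 (0.0427) with SH-2251 resting. In restimulated cells it was 6.21 (0.0557) in control and 5.72 (0.0572) with SH-2251. The spots ranged from 6.16 to 6.40 against 5.95 to 6.09 in resting and from 6.12 to 6.28 against 5.60 to 5.78 in restimulated cells, so that in neither state did the spots of the pair overlap. Spots of 1 array share its RNA, so these SDs cover spot error and not the spread between cultures.

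The enzymes that supply nucleotides moved less evenly. Thymidine kinase Tk1 read 4.15, 4.04, 3.68 and 3.19, with SH-2251 differences of -0.11 and -0.49. The ribonucleotide reductase subunit Rrm1 differed by -0.14 and -0.30. Thymidylate synthase Tyms had the smallest difference of the S phase members in restimulated cells, at 4.46, 4.30, 4.25 and 4.12, with differences of -0.16 and -0.13, both inside the technical SD. Among the polymerase genes, the primase Prim1 differed by -0.23 and -0.38 and the clamp loader subunit Rfc4 by -0.23 and -0.45. The catalytic subunit Pola1 was the exception in resting cells, which read 2.02 in control and 2.13 with SH-2251. That 0.12 lay inside the technical SD, and it was 1.54 and 1.29 in restimulated cells.

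**Figure D1:**
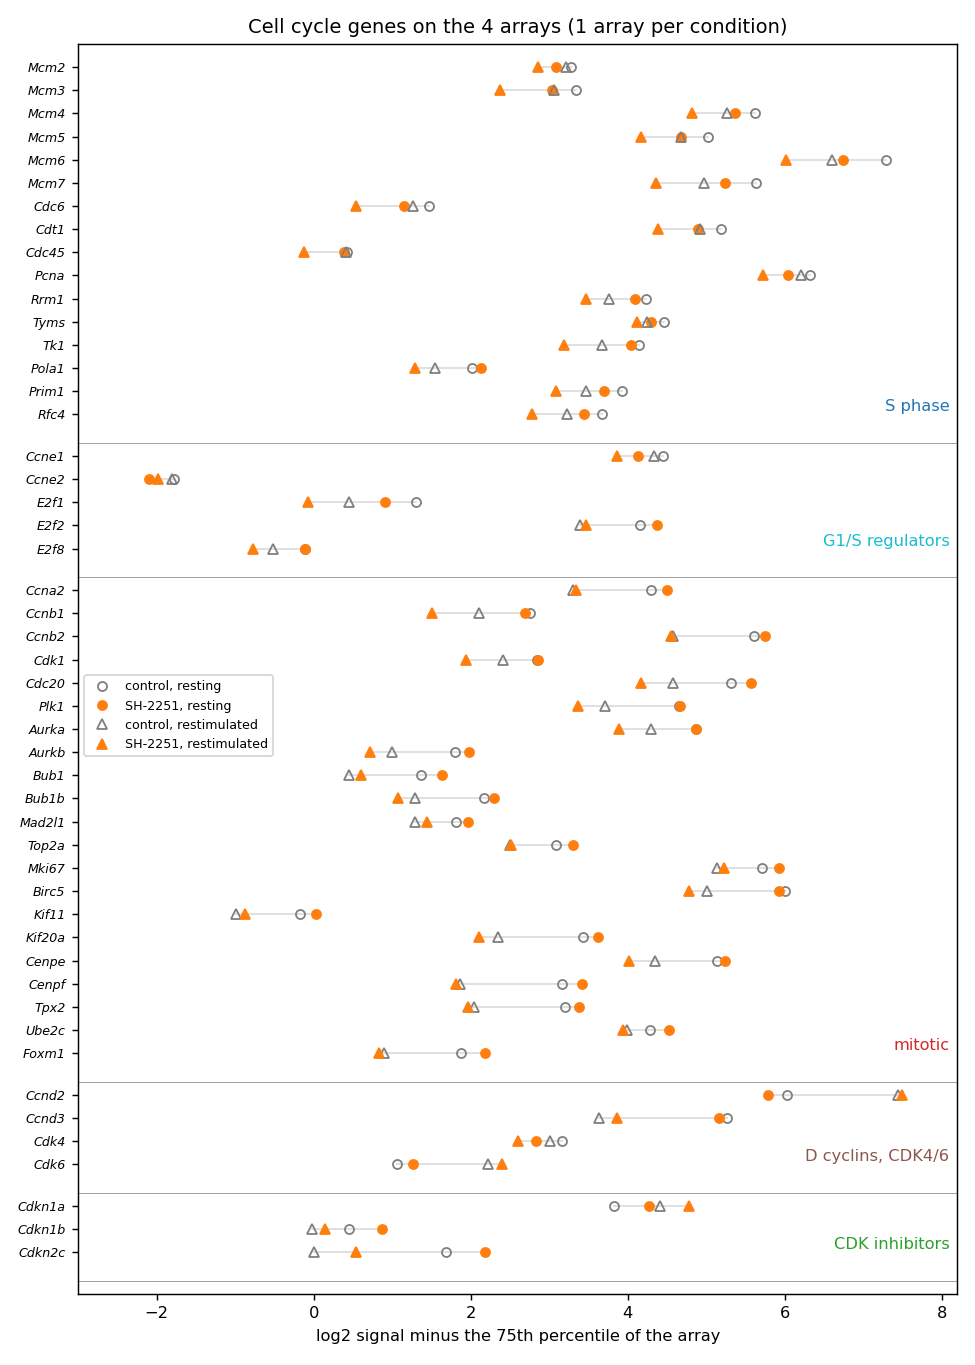
Level of each of the 49 measured members on the 4 arrays, as log2 signal minus the 75th percentile of the array, with 1 row per gene, circles for resting and triangles for restimulated cells, open grey for control and filled orange for SH-2251. All 16 S phase members were lowest with SH-2251 in restimulated cells, where 29.8% of 11518 genes well above background on all 4 arrays were. In control resting cells 15 S phase members were highest, compared with 30.4% of those genes. With SH-2251 in resting cells 19 of 21 mitotic members were highest, compared with 24.1%.

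Of the 5 regulators of entry into S phase, 4 were lower with SH-2251 in each state, where 57.4% and 57.9% of all genes were. E2f1, an activating E2F factor, read 1.30, 0.90, 0.45 and -0.08, with SH-2251 differences of -0.40 and -0.53. Cyclin E1 (Ccne1), the partner of CDK2, differed by -0.32 and -0.48. Cyclin E2 (Ccne2) was dim, at -1.78, -2.09, -1.81 and -1.98, and its differences were -0.32 and -0.18. The activator E2f2 stood apart, at 4.16 in control and 4.37 with SH-2251 resting cells and 3.40 and 3.47 in restimulated cells, while the repressor E2f8 differed by -0.01, far inside the technical SD, and -0.26. The group's median difference was -0.32 in resting and -0.26 in restimulated cells. Under normexp on all spots 3 of 5 were lower in resting cells, with a median of -0.065, and Ccne2 turned to 0.32.

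The mitotic members did not follow the replication genes. In resting cells 19 of 21 were higher with SH-2251, where 42.5% of all genes were higher, and their median difference was 0.18. The direction held under median centring and quantile normalization and turned to -0.09 under one background correction, normexp, whose fitted mean background on the SH-2251 resting array was negative (-151.7 intensity units). None reached 1.5-fold or 2-fold, sizes of increase that 6.08% and 2.22% of all genes had. Of the 21, 9 were higher by more than the technical SD compared with 18.7% of all genes, and none was lower by that much. In restimulated cells SH-2251 went with a lower level in 15 of 21 and a higher one in 6, where 42.1% of all genes were higher, and the median was -0.07, beside -0.063 for all genes. With the mean of all probes of a gene it was -0.21, beside -0.065. There 10 of 21 were lower by more than the technical SD, compared with 27.3% of all genes.

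Cdc20, which activates the anaphase-promoting complex, had the widest swing between states. It read 5.31 in control resting, 5.57 with SH-2251 resting, 4.58 in control restimulated and 4.17 with SH-2251 restimulated cells. SH-2251 cells were thus higher by 0.26 in the resting and lower by 0.40 in the restimulated state, each beyond the technical SD. Cyclin B1 (Ccnb1), the partner of CDK1 in mitosis, read 2.76, 2.69, 2.10 and 1.5, and its difference of -0.60 in restimulated cells was the only one of the mitotic members past 1.5-fold. Its 2 other probes gave -0.47 and -0.54 there, and in resting cells 0.11 and 0.09 beside -0.07 for the brightest. Cdk1 itself went from 0.02 in resting to -0.48 in restimulated cells.

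The kinase genes Plk1, Aurka and Aurkb showed the same order of arrays as Cdc20. Plk1, which acts at centrosomes and kinetochores, differed by 0.01 and -0.34, and Aurka by 0.00 and -0.41. Aurkb, the kinase of the chromosomal passenger complex, read 1.81, 1.98, 1.00 and 0.71, so that its difference went from 0.17 to -0.29. The passenger subunit Birc5 was lower in both states, by 0.08 and 0.23. In each of these 4 genes the SH-2251 restimulated array was the lowest of the 4. It was the lowest in 29.8% of all genes well above background on all 4 arrays.

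Another set of mitotic genes showed a positive SH-2251 difference in resting cells and one near 0 in restimulated cells. Foxm1, the transcription factor of the mitotic programme, read 1.87, 2.18, 0.89 and 0.83, with differences of 0.31 and -0.06, the first being the largest increase of the group. Cenpf, a kinetochore protein, read 3.16, 3.42, 1.86 and 1.82, and cyclin B2 (Ccnb2) 5.61, 5.75, 4.58 and 4.55. The spindle factor Tpx2, the ubiquitin-conjugating enzyme Ube2c, cyclin A2 (Ccna2) and Top2a, which untangles sister chromatids, differed by 0.18 to 0.24 in resting and by -0.07 to 0.04 in restimulated cells. The proliferation marker Mki67 read 5.71, 5.92, 5.14 and 5.22, with differences of 0.21 and 0.09. Second probes gave 0.15 and -0.04 for Mki67 and 0.06 and -0.18 for Top2a. The spindle checkpoint gene Mad2l1 was higher with SH-2251 by 0.15 and 0.16 and thus did not share the reversal. Bub1, a gene of the same checkpoint, differed by 0.26 and 0.15, but a second probe on another transcript of Bub1 gave -0.26 and -0.14. The checkpoint kinase Bub1b and the motor Cenpe were higher by 0.13 and 0.11 in resting and lower by 0.21 and 0.34 in restimulated cells. Of the kinesins, Kif20a differed by 0.20 and -0.24 and Kif11 by 0.21 and 0.12. A second Kif11 probe, above background on 3 arrays, gave 0.23 and -2.89, so that the mean of both was -1.39 in restimulated cells.

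**Figure D2:**
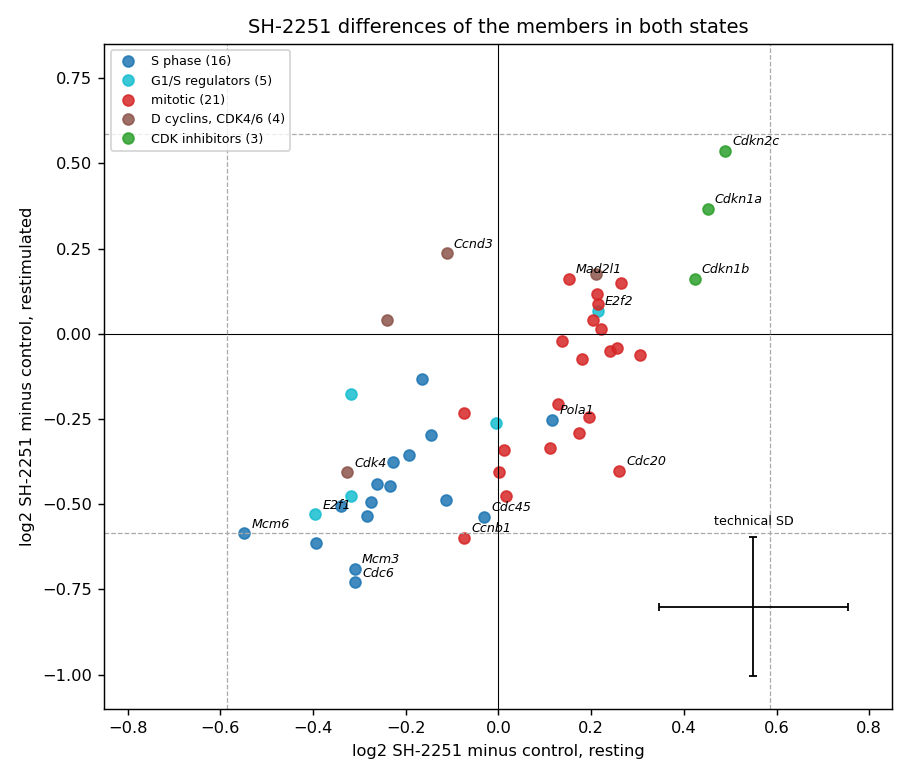
Log2 difference SH-2251 minus control of each measured member in resting cells (horizontal) and restimulated cells (vertical), coloured by group, with dashed lines at 1.5-fold and a cross for the median technical SD of a difference. The S phase members other than Pola1 lie at the lower left, the mitotic members other than Ccnb1 and Birc5 right of 0 on the horizontal axis and mostly below 0 on the vertical one, and the 3 CDK inhibitors at the upper right.

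Set side by side, the median of the S phase members lay 0.43 below that of the mitotic members in resting cells and 0.42 below it in restimulated cells. Under the alternatives tried the gap ran from -0.43 to -0.39 and from -0.42 to -0.28. A longer list of 39 further replication genes and 38 further mitotic genes gave gaps of -0.34 and -0.25. Of these replication genes 33 were lower with SH-2251 in resting and 38 in restimulated cells, where 57.4% and 57.9% of all genes were. Their medians were -0.16 and -0.44. Of the mitotic genes 35 were higher in resting cells, where 42.5% of all genes were, and 29 lower in restimulated cells, where 57.9% were. Their medians were 0.18 and -0.18. The uracil-DNA glycosylase Ung, a repair enzyme for uracil in DNA, had the largest difference of the replication list, at 2.54, 1.58, 2.57 and 1.54, which is 0.96 lower in resting and 1.03 lower in restimulated cells.

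In both groups the SH-2251 difference was lower in restimulated than in resting cells, except under normexp on all spots. The restimulated difference minus the resting one was below 0 in 15 of 16 S phase members, with a median of -0.22, and in 20 of 21 mitotic members, with a median of -0.30, compared with 47.7% below 0 and a median of 0.011 over all 12149 genes compared in both states. The further lists gave 39 of 39 with a median of -0.22 and 35 of 38 with a median of -0.39. Under normexp on all spots it was below 0 in 5 of 16 S phase members, with a median of 0.095, and in 11 of 21 mitotic members, with a median of -0.03, while under normexp without the spots of uneven background it was below 0 in 15 of 16 and 20 of 21. This quantity uses each of the 4 arrays once and was not tested. The exceptions were Tyms, at 0.03, and Mad2l1, at 0.01.

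Restimulation for 4 h went with lower mitotic transcripts in both cultures. All 21 mitotic members were lower in restimulated than in resting control cells, where 54.8% of 12757 genes were lower, and all 21 with SH-2251, where 53.6% of 12613 were. Their median difference was -0.82 in control and -1.18 with SH-2251, compared with -0.064 and -0.051 for all genes. At least 2-fold lower were 4 of 21 in control and 14 of 21 with SH-2251, where 7.34% and 6.95% of all genes were, and at least 1.5-fold lower were 16 and 19, compared with 18.5% and 18.9%. The gap between the cultures was absent under normexp on all spots, where 6 of 21 in control and 5 of 21 with SH-2251 were at least 2-fold lower, while under normexp without the spots of uneven background 6 and 14 were. Under median centring and under quantile normalization the control count was 7 and that with SH-2251 was 15. The resting arrays of these comparisons are the same ones that enter the SH-2251 differences, so the 4 comparisons are not independent.

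Cenpf showed the largest of these differences, -1.31 in control and -1.61 with SH-2251, which is 2.47-fold and 3.04-fold. Next came Tpx2 at -1.16 and -1.42, Kif20a at -1.08 and -1.52 and Ccnb2 at -1.03 and -1.19, the other 3 mitotic members past 2-fold in control cells. Cdc20 was lower by 0.74 in control and by 1.40 with SH-2251, the widest gap between cultures. The smallest differences were those of Ube2c and Cdk1 in control, Cdk1 at -0.42, and of Mad2l1 and Ube2c with SH-2251. Ube2c differed by -0.29 and -0.58, and Mad2l1 by -0.52 and -0.51. Bub1 differed by -0.92 in control and -1.03 with SH-2251 by its brightest probe. Its second probe, on another transcript, gave only -0.13 and -0.01. Of the 38 further mitotic genes all were lower in either culture, led by the phosphatase genes Cdc25b, at -1.79 and -1.83, and Cdc25c, at -1.40 and -1.95, whose products activate CDK1. Cdca2 differed by -1.02 and -1.54, the separase gene Espl1 by -1.01 and -1.48, and the kinetochore gene Ndc80 by -0.94 and -1.45.

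The replication genes were also lower after restimulation, but by less. All 16 S phase members were lower in either culture, with medians of -0.35 in control and -0.61 with SH-2251 (-0.36 and -0.34 under normexp on all spots, where 14 of 16 were lower with SH-2251), so that their median lay 0.46 and 0.57 above that of the mitotic members. At least 1.5-fold lower in control cells were Mcm6 and Mcm7, at -0.69 and -0.66. That is 12.5% of the S phase members, below the 18.5% of all genes. With SH-2251 9 of 16 were, compared with 18.9% of all genes. The smallest differences in control cells were those of Cdc45 at -0.01, Mcm2 at -0.06 and Pcna at -0.11, all inside the technical SD. Of the 39 further replication genes 31 were lower in control and 37 with SH-2251, where 54.8% and 53.6% of all genes were. Their medians were -0.47 and -0.69. Among those past 2-fold with SH-2251 were the polymerase subunit Pold1 (-0.79 and -1.08), Dscc1 (-0.93 and -1.05) and the histone chaperone Asf1b (-0.996 and -1.02). Of the G1/S regulators E2f1 differed by -0.85 and -0.98, E2f2 by -0.76 and -0.91 and E2f8 by -0.40 and -0.66, while Ccne1, at -0.12 and -0.27, and Ccne2, at -0.03 and 0.11, differed less.

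**Figure D3:**
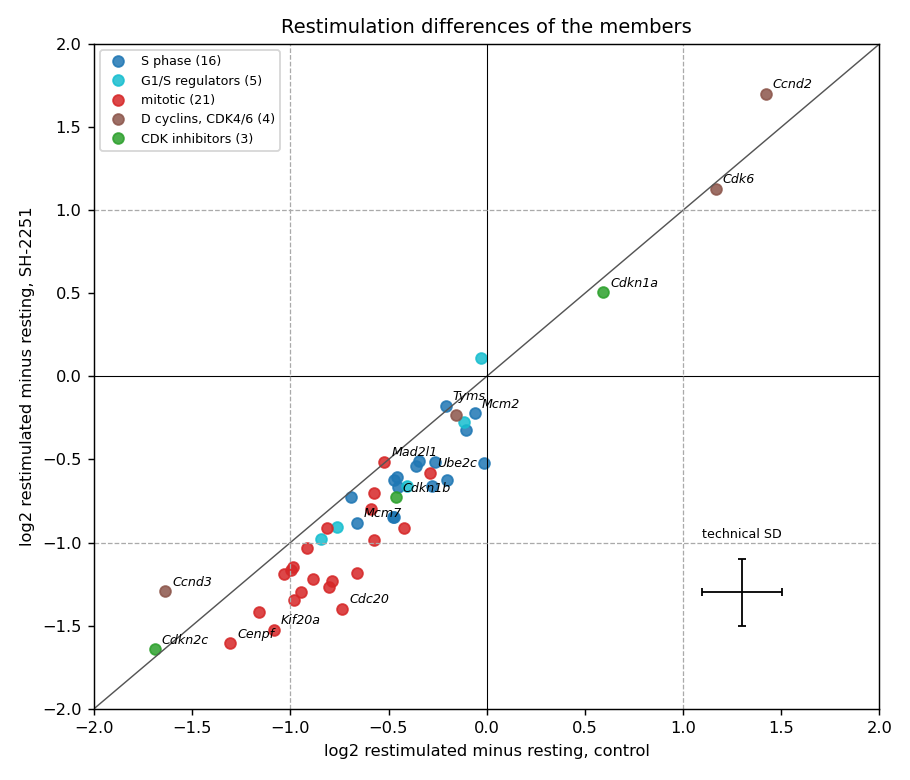
Log2 difference restimulated minus resting of each measured member in control cells (horizontal) and in SH-2251-treated cells (vertical), coloured by group, with dashed lines at 2-fold, the line of equality and a cross for the median technical SD of a difference. The 21 mitotic members are lower in both cultures and nearly all lie below the line of equality, the S phase members lie nearer to 0, and Ccnd2 and Cdk6 lie above 2-fold in both.

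The D-type cyclins moved in opposite directions on restimulation. Ccnd2, a cyclin induced by mitogens in lymphocytes, read 6.03 in control and 5.79 with SH-2251 resting cells and 7.45 and 7.49 in restimulated cells, which is 2.68-fold and 3.25-fold higher. Ccnd2 and Cdk6 were the 2 members at least 2-fold higher on restimulation, where 7.2% of all genes in control and 7.08% in SH-2251 cells were, and Cdkn1a in control cells was the only further one at least 1.5-fold higher, at 1.51-fold and not under median centring, quantile normalization or normexp, where 15% and 14.8% of all genes were. Ccnd3 read 5.27, 5.16, 3.63 and 3.87, which is 3.11-fold and 2.45-fold lower. Its SH-2251 difference was -0.11 in resting and 0.24 in restimulated cells. The 2 other Ccnd2 probes gave restimulation differences of 1.43 and 1.45 in control and 1.63 and 1.71 with SH-2251. In both genes the restimulated arrays were clear of the resting ones, and the 2 arrays of the same state lay within 0.24 of each other. That gap exceeded the technical SD for Ccnd2 in resting and for Ccnd3 in restimulated cells.

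Of the kinases that pair with the D cyclins, Cdk4 was lower with SH-2251 in either state, at 3.16, 2.84, 3.01 and 2.60, a difference of -0.33 and -0.41. Cdk6 read 1.06, 1.27, 2.22 and 2.40, so that its brightest probe was higher after restimulation by 1.17 in control and 1.13 with SH-2251. A second Cdk6 probe, above background in every condition too, showed -0.26 and 0.27, and the 2 probes disagree for this gene. Averaging them left 1 member at least 2-fold higher in each culture, Ccnd2, in place of 2.

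The 3 CDK inhibitors among the members were higher with SH-2251 in both states. Their median difference was 0.45 in resting and 0.37 in restimulated cells, which is 0.70 and 0.86 above the S phase median and 0.27 and 0.44 above the mitotic median. None reached 1.5-fold, a size of increase that 6.08% of all genes in resting and 6.9% in restimulated cells had, and no member of any group was 2-fold higher in restimulated cells, where 2.65% of all genes were. All 3 exceeded the technical SD in resting and 2 of 3 in restimulated cells, where 18.7% and 19.4% of all genes were higher by that much.

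Cdkn1a, which encodes p21, a p53 target that binds cyclin-CDK complexes and Pcna, was spotted 10 times. Its mean level was 3.82 on the control resting array, 4.28 with SH-2251 resting (9 spots), 4.42 in control restimulated and 4.78 with SH-2251 restimulated cells, with SDs between spots of 0.0282 to 0.0347. The spots of the 4 arrays did not overlap, from 3.80 to 3.88, 4.23 to 4.33, 4.36 to 4.47 and 4.71 to 4.83. SH-2251 cells were thus higher by 0.45 and 0.37, and restimulated cells by 0.59 in control and 0.51 with SH-2251. It was the only inhibitor among the members that was higher on restimulation, where 45.2% of all genes in control and 46.4% in SH-2251 cells were higher.

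Cdkn2c, which encodes the CDK4/6 inhibitor p18, read 1.69, 2.18, -0.0011 and 0.54. The SH-2251 difference was 0.49 in resting and 0.54 in restimulated cells, on top of a 3.23-fold lower level after restimulation in control and a 3.12-fold lower level with SH-2251. Cdkn1b, which encodes p27, read 0.44, 0.87, -0.02 and 0.14, with differences of 0.42 and 0.16. A second Cdkn1b probe gave -0.01 and -0.06, so the SH-2251 difference of this gene rests on 1 probe. Both probes were lower on restimulation, the second by more, at -1.27 and -1.32.

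The 4 inhibitors that are not members went in both directions. Cdkn2b, which encodes p15 and is a known target of TGF-β signalling, read -1.39 in control and 0.91 with SH-2251 resting cells and 0.11 and 2.38 in restimulated cells, which is 4.94-fold and 4.84-fold higher with SH-2251. Its neighbour Cdkn2a, which encodes the INK4A and ARF proteins, was dim, at -4.42, -2.52, -3.44 and -1.67, and was 3.74-fold and 3.40-fold higher. Cdkn2d, which encodes p19, differed by -0.50 and -0.34, and Cdkn1c, which encodes p57, by -0.48 and -0.31. INK4 and CIP/KIP genes were thus found on either side.

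**Figure D4:**
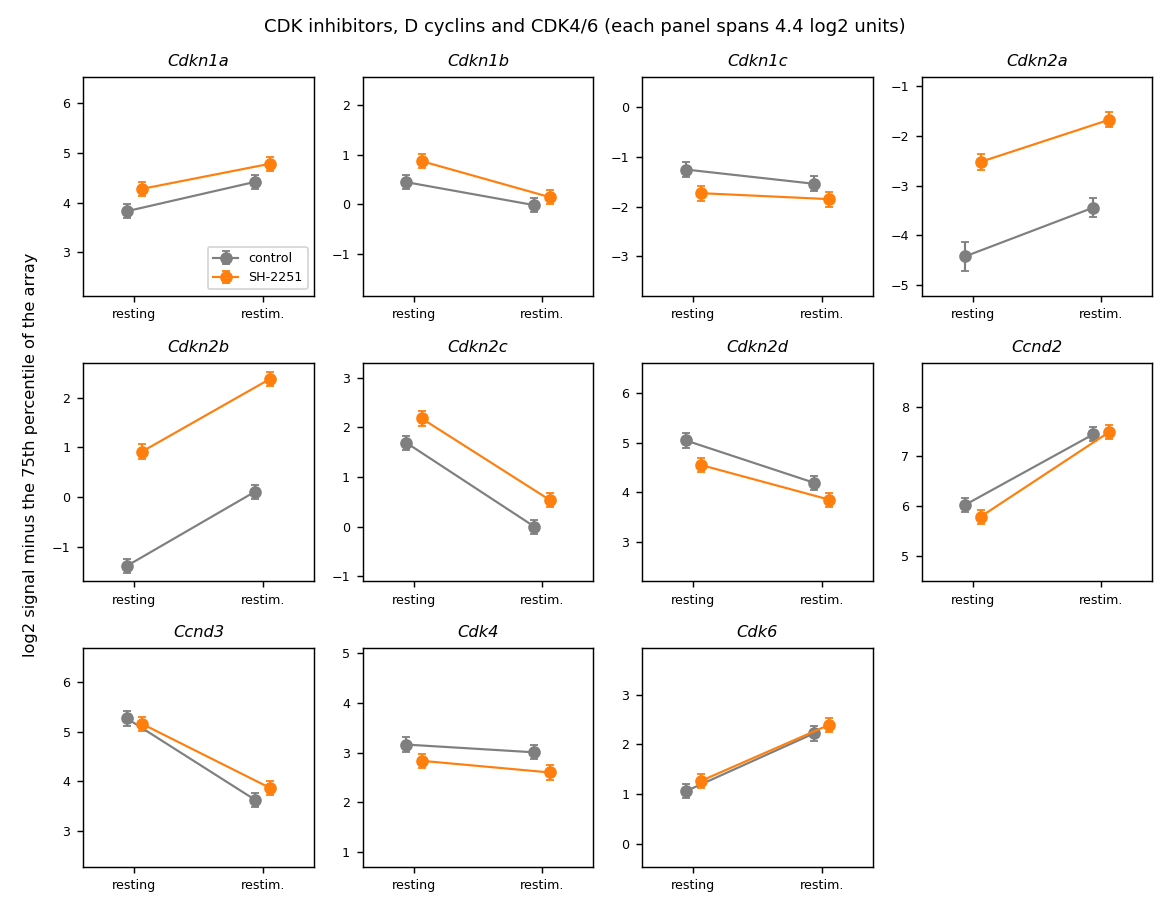
Level of 7 CDK inhibitor genes, the D cyclins Ccnd2 and Ccnd3 and the kinases Cdk4 and Cdk6 in resting and restimulated cells, as log2 signal minus the 75th percentile of the array, for control (grey) and SH-2251 (orange). Bars are the scanner software's error for 1 array. Cdkn2a and Cdkn2b show the widest gaps between SH-2251 and control, and Ccnd2 and Ccnd3 move apart with restimulation.

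Further regulators were counted from 2 other lists. The first held 18 genes for pocket proteins, other E2F factors, Cdk2 and further cell cycle regulators. With SH-2251 10 of them (55.6%) were higher in resting and 8 (44.4%) in restimulated cells, compared with 42.5% and 42.1% of all genes. Their medians were 0.03 and -0.04, compared with -0.055 and -0.063 for all genes. In this list the pocket protein gene Rbl2 differed on restimulation by -1.15 and -1.21, Ccng2 by -1.02 and -1.14, E2f7 by -0.77 and -1.06 and E2f5 by 1.57 and 1.77. Of 15 p53 target genes, 12 were higher with SH-2251 in resting and 13 in restimulated cells, where 42.5% and 42.1% of all genes were, with a median of 0.32 in both, and 5 and 2 were at least 1.5-fold higher, where 6.08% and 6.9% of all genes were. Plk2 differed by 1.5 and 0.28, Gadd45a by 0.93 and 0.40 and Sesn2 by 0.71 and -0.03. Lower with SH-2251 were 3 of the 15 in resting and 2 in restimulated cells. Gadd45b was the lowest of the list in resting cells, at -0.40, and differed by 0.32 in restimulated cells. Some p53 targets are also induced by antigen receptor signals, and Gadd45b, at 2.83 and 3.55, and Plk3, at 2.23 and 2.45, were among those higher on restimulation.

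Second probes were well above background on all 4 arrays in 16 cases among the members. They gave the direction of the brightest probe in 11 of 16 for SH-2251 in resting cells, 12 of 16 for SH-2251 in restimulated cells, and 15 and 16 of 16 for restimulation in control and SH-2251 cells. The median gap between the probes was 0.158, 0.0931, 0.0685 and 0.0781. Of the 7 such probes of mitotic members, 4 gave the same direction for SH-2251 in each state. For restimulation all 7 did in each culture. The SH-2251 differences of single members are of the size at which probes of a gene can disagree, whereas the restimulation differences of the mitotic genes are mostly larger.

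Markers of other cells moved with SH-2251 as well. Summed over the list, on a linear scale relative to the 75th percentile, 7 of 8 B cell markers gave 14.8 in control and 17.7 with SH-2251 resting cells and 15.3 and 29.1 in restimulated cells, with Pax5 not above background on any array. The red cell markers gave 0.365, 0.712, 0.232 and 0.639. The natural killer and CD8 markers gave 0.299, 0.453, 0.318 and 0.535, with Ncr1 and Klrb1c not above background, and the myeloid markers 2.88, 2.52, 2.99 and 3.05, with Lyz2, Itgam and Itgax not above background. The part of these markers in the differences of the cell cycle genes was not tested.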

How the data were processed

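RNA of the 4 conditions, 500 ng each, was labelled with Cy3 and hybridised to single-dye Agilent arrays, 1 per condition. For each array the authors deposited the output of Agilent Feature Extraction (10.7.3.1 per the file headers), with processed signal intensities already corrected for background and spatial trend. A further table of log2 values that the authors deposited equalled the log2 intensity minus a constant within 0.01 for 99.6% to 99.7% of probes, with the 75th percentile at 0. No spot of a sample probe was saturated, 77 to 106 spots per array were marked as outliers and left out, and the negative control measure was out of range on 3 of 4 arrays.

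Here log2 processed signal minus the 75th percentile of each array was computed, spots of a probe were averaged, and probes were named through their RefSeq accession and a table of RefSeq genes (GRCm38.p6, used for names and promoters only). Of 41174 probes 27198 (66.1%) matched 18539 genes. The probe of highest mean level stood for a gene, and genes well above background on at least 1 array of a pair were compared. Ratios are given as fold or log2 difference. As each condition has 1 array, no test, p-value or SD across conditions was computed, and lists are described by counts and medians beside all genes. All members are named, and from each further pathway list the genes past 2-fold in any comparison, at most 5 by size, except for items not reported here. The members and lists were chosen with earlier results of these data known. The differences and list medians were checked on simulated differences of known size. These were planted after scaling and probe choice, so the check covers the calculation alone and not the spread between cultures. Alternatives were median centring, quantile normalization, normexp (offset 50, on median spot signals since mean signals were not in the columns used), the authors' log2 values, both filters, the mean of all probes and outlier spots kept. Python 3.11.15, numpy 2.4.6, pandas 2.3.3, matplotlib 3.10.9, R 4.3.3 and limma 3.58.1 were used.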

Additional observations from a re-analysis of the deposited data

Results flagged for a closer look

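Of 163 genes of the members and the further pathway lists, 6 (3.68%), of which 1 is a member, had SH-2251 differences of opposite direction in the resting and the restimulated state, each larger than its technical SD. Of all 12149 genes compared in both states 188 (1.55%) did. With 1 array per condition the difference between the states was not tested. Given as the restimulated difference minus the resting one on the log2 scale, the member Cdc20 stood at -0.66, from 0.26 to -0.40. Dbf4, the activator of the kinase that fires replication origins, stood at -0.65, from 0.27 to -0.39, against the direction of most other replication genes in resting cells. Cdca2 stood at -0.52, from 0.22 to -0.30, and Espl1 at -0.47, from 0.24 to -0.22. In the other direction, Wee1, the kinase that restrains CDK1, stood at 0.91, from -0.44 to 0.46, at a dim level. Gadd45b stood at 0.72, from -0.40 to 0.32.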

How the results depend on the processing

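No paired analysis was possible because each condition has 1 array. Of the 49 members' 196 differences, all stayed within 1 technical SD under median centring, the authors' log2 values, both filters, outlier spots kept, and normexp without spots of uneven background. Under quantile normalization 4 moved by more, under the mean of all probes 10 did, and Kif11 in control cells on restimulation reversed to 0.55, since its dim second probe gave 1.92, while its SH-2251 difference in restimulated cells went from 0.12 to -1.39. Members at least 1.5-fold lower with SH-2251 in restimulated cells were 2 under median centring and 2 under quantile normalization, compared with 4. With the mean of all probes, 1 member was at least 2-fold lower there, compared with 0, and on restimulation 1 was at least 2-fold higher in control and 1 in SH-2251 cells, compared with 2 in each. Under normexp on all spots 84 differences moved. In resting cells the S phase median with SH-2251 became -0.51, the mitotic median reversed to -0.0906, and 3 members were at least 1.5-fold lower, compared with 0. On restimulation with SH-2251 the S phase median became -0.34, the mitotic median -0.90, and 6 members were at least 2-fold lower, compared with 16, beside 8 compared with 6 in control cells. The normexp fit gave a mean background of -151.7 on the SH-2251 resting array and 7.36 to 8.23 on the others. Without 12 spots of uneven background it was 7.42, and no list result moved. The S phase median stayed below the mitotic one for SH-2251 in both states, and above it for restimulation in both cultures, under every alternative run. All 49 members were well above background on all 4 arrays, but the dim Ccne2 depended on the background correction. Its SH-2251 difference in resting cells went from -0.32 to 0.32 under normexp on all spots.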
